A study of Mus musculus with 4 samples.

Results

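The genes described here move cholesterol out of cells or answer to the liver X receptors (LXRs): Abca1, Abcg1, Apoe, Mylip, Smpdl3a and Scarb1. They were chosen by symbol, and all 6 were found among the 54532 genes of the count table. LXRs are nuclear receptors that bind oxysterols, pair with retinoid X receptors on DNA and raise the genes that export cholesterol when a cell holds too much of it. The pathway is best known from macrophages, which pass cholesterol through ABC transporters to apolipoproteins and high density lipoprotein (HDL). In the thymus, epithelial cells shape T cell development, cortical cells (cTEC) by positive selection and medullary cells (mTEC) by showing tissue antigens.

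RNA came from bulk sorted thymic epithelium of C57BL/6 mice, mTEC sorted as Ly51− UEA1+ and cTEC as Ly51+ UEA1−. The 4 groups were SCD1 knockout mTEC, littermate control mTEC (genotype WT), SCD1 knockout cTEC and littermate control cTEC, with 1 library each. SCD1 is a desaturase that makes oleic acid, and Scd1 is itself an LXR target. Not given in the sources used here were age, sex, the number of mice per library, the deleted part of Scd1 and the cells in which it was deleted. With 1 library per group no difference has a replicate check and no test was made, so each comparison is one of libraries. Genotype and population comparisons share libraries. The 95% intervals cover counting error only.

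Libraries held 15740383 to 18151725 reads assigned to genes. Scd1 had 278 reads in knockout mTEC, against 1310 in control mTEC, and 73 in knockout cTEC, against 325 in control cTEC (log2 ratios −2.28 and −2.34), which goes with the labels. All 11 cTEC markers were at least 2-fold lower in mTEC than in cTEC in both genotypes, and 9 of 10 mTEC markers were at least 2-fold higher. In bulk RNA, fewer cells of a type and less RNA per cell cannot be told apart.

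Promoter sequence is shown so that letters like those LXRs bind can be read beside the values. Abca1, Apoe and Mylip, 3 of the 6 genes, matched the RefSeq promoter table (GRCm38.p6) at the same start as in the count table. Each run is the 250 bases before that start, 5′ to 3′ on the gene's strand. Capitals mark exact GGGCGG (the GC box bound by SP1 family factors) and CACGTG (an E-box), and any direct repeat of AGGTCA, with 4 free bases between the copies and up to 3 mismatches in its 12 named bases. LXR and its partner bind repeats of this kind. Abcg1, Smpdl3a and Scarb1 are described without sequence.
Abca1, chr4:53159896-53160145, minus strand: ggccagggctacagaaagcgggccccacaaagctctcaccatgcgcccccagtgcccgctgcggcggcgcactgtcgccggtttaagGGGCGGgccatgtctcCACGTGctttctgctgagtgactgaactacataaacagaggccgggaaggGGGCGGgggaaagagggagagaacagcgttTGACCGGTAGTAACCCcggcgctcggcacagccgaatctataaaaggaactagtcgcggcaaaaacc
Apoe, chr7:19699189-19699438, minus strand: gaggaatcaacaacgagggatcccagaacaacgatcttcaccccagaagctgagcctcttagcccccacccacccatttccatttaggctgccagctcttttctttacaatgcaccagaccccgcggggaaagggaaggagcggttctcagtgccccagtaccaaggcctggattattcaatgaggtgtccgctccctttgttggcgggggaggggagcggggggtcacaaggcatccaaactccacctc
Mylip, chr13:45389492-45389741, plus strand: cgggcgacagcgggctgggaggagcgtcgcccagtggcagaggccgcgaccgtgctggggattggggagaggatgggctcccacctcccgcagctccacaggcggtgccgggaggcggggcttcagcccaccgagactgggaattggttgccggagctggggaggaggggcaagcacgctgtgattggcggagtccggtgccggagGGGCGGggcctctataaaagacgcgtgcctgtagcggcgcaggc

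Abca1 held 1 such repeat, 67 to 52 bases before the start, read on the other strand as GGGTTACTACCGGTCA with 3 mismatches. It also held 2 GC boxes and 1 E-box, none of which overlapped the repeat. Mylip held 1 GC box, 44 to 39 bases before the start, and the Apoe window held no match to any of these motifs. Searched on both strands in the same way, 18.5% of 32851 promoters had the repeat with up to 3 mismatches, 32.7% a GC box and 6.02% an E-box. An exact half-site AGGTCA occurred in 4607 of the 32851 promoters and in none of the 3 shown. The windows of Abca1, Apoe and Mylip were 61.6%, 57.2% and 71.2% G or C, beside a median of 52.4%. A match is a description of letters, and binding was not measured.

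The first question was how abundant each gene is. Levels of different genes were compared per length, as RPKM, which is CPM divided by the listed gene length in kilobases. CPM is the read count divided by the TMM-scaled library size, TMM being edgeR's scaling for library composition. Apoe, the secreted lipid carrier that takes up exported cholesterol, stood far above the rest, at 648 RPKM in knockout mTEC, 690 in control mTEC, 1109 in knockout cTEC and 1332 in control cTEC. Ranked on this scale among 22046 protein-coding genes it was number 54, 49, 28 and 20 in the same libraries. Its reads made up 0.143% of all reads in knockout mTEC and 0.277% in control cTEC. The medullary libraries were both lower than the cortical ones.

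The other members followed at a distance. Smpdl3a, a lysosomal and secreted phosphodiesterase described as an LXR target in human macrophages, averaged 42.7 RPKM over the 4 libraries. Mylip, the ubiquitin ligase also called IDOL that sends lipoprotein receptors to degradation, averaged 32.5. Of the transporters, Abcg1, which loads HDL, lay between 18.2 and 24.2 RPKM, and Abca1, which loads lipid-poor apolipoproteins, averaged 11.7. Scarb1, the HDL receptor SR-BI, averaged 0.718. Some neighbours in this order overlapped. In knockout mTEC Mylip (25.5, 24.2 to 26.8) and Abcg1 (24.2, 23.1 to 25.4) overlapped in their counting intervals. In knockout cTEC Mylip (39.6, 38.0 to 41.3) overlapped Smpdl3a (39.5, 37.5 to 41.6) instead.

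**Figure D1:**
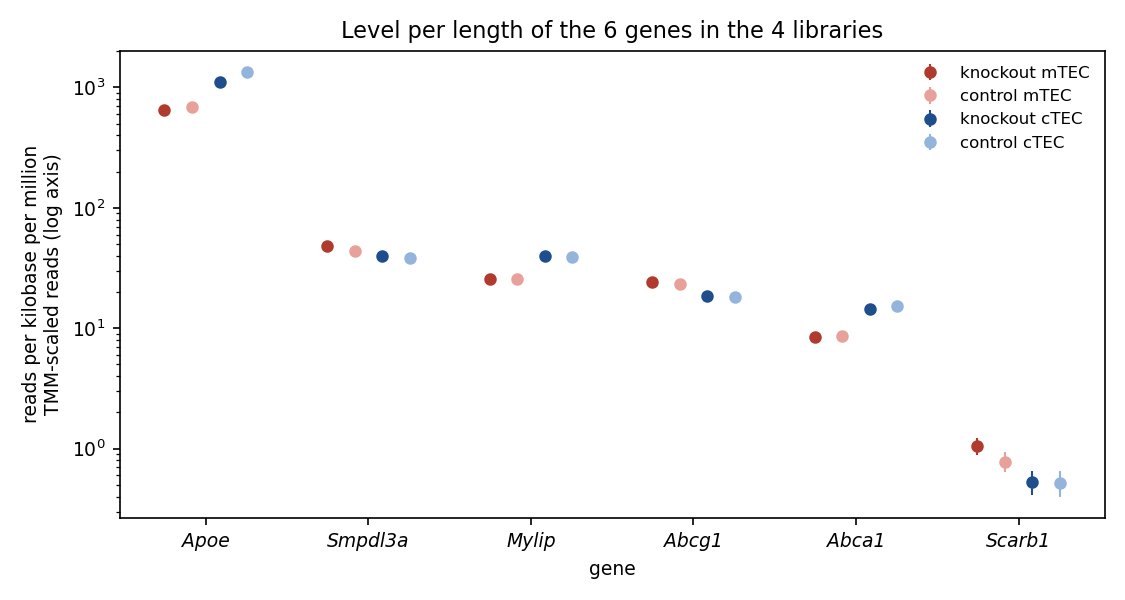
Level per length (RPKM, log axis) of each gene in knockout mTEC, control mTEC, knockout cTEC and control cTEC. Points are single libraries and bars 95% Poisson intervals. Apoe lies between 648 and 1332, Scarb1 between 0.516 and 1.05, and the other 4 genes between these.

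Gene models bear on these levels. The listed length of Scarb1 is 8500 bases, and the longest GENCODE release M21 transcript has 3093. For Apoe the lengths were 2138 and 1408 bases, for Abcg1 4066 and 5832. With the longest transcript in place of the listed length, the mean levels became 1435 for Apoe and 1.97 for Scarb1, and all 6 genes kept their place in the order. No 50-base window of Abca1, Abcg1, Apoe or Smpdl3a occurred in a transcript of another gene, and 0.464% of those of Mylip and 0.197% of those of Scarb1 did. Other genes at the same positions held 1 read in all.

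The second comparison asked whether these genes differed without SCD1. In both populations the differences were small: none of the 6 genes reached a 2-fold difference with at least 50 reads over the pair and an interval excluding 0. By that rule 0.935% of 16466 genes were called in mTEC and 1.20% of 14445 genes in cTEC. At 1.5-fold none of the 6 was called either, where 3.61% of genes were in mTEC and 4.67% in cTEC. The members' median log2 ratio of knockout over control was 0.03 in mTEC and 0.02 in cTEC, beside 0.01 for all genes tested in each. The member with the largest ratio was Scarb1 in mTEC and Apoe in cTEC.

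Abca1 (ENSMUSG00000015243, mm10 chromosome 4, 53030787 to 53159895, minus strand, 50 exons) had 1544 reads in knockout mTEC, against 1521 in control mTEC, and 2636 in knockout cTEC, against 2413 in control cTEC. Scaled to library size these were 87.9 CPM in knockout mTEC, 89.2 in control mTEC, 150 in knockout cTEC and 158 in control cTEC, and the log2 ratios were −0.02 (−0.13 to 0.08) and −0.07 (−0.15 to 0.01). Abcg1 (ENSMUSG00000024030, chromosome 17, 31057698 to 31115777, plus strand) had 1731 reads in knockout mTEC, against 1612 in control mTEC, and 1320 in knockout cTEC, against 1129 in control cTEC. The log2 ratio was 0.06 (−0.04 to 0.16) in mTEC and 0.03 (−0.09 to 0.14) in cTEC. For both transporters the knockout and control libraries lay within counting error of each other, and the intervals bound any difference between these libraries at 0.16 on the log2 scale.

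Apoe (ENSMUSG00000002985, chromosome 7, 19696109 to 19699188, minus strand) was lower in both knockout libraries. It stood at 1386 CPM in knockout mTEC, against 1475 in control mTEC, a log2 ratio of −0.09 (−0.11 to −0.06). In cTEC it stood at 2371 CPM in the knockout library and 2848 in the control library, a log2 ratio of −0.26 (−0.28 to −0.24), or 1.20-fold lower. With 24354 to 43530 reads per library the counting error was small, and the spread between mice is unknown. Among the 6737 genes with at least 1000 reads over the cTEC pair, 6.71% lay farther from 0, and in mTEC 38.5% of 6736 genes lay farther out than Apoe did there. Apoc1, an apolipoprotein gene of the same cluster on chromosome 7, stood at −0.20 (−0.38 to −0.02) in mTEC and −0.25 (−0.44 to −0.07) in cTEC.

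Scarb1 (ENSMUSG00000037936, chromosome 5, 125277087 to 125341094, minus strand) had few reads. There were 157 in knockout mTEC, against 113 in control mTEC, and 78 in knockout cTEC, against 67 in control cTEC. The log2 ratio was 0.43 (0.07 to 0.79) in mTEC and 0.02 (−0.47 to 0.51) in cTEC. The mTEC value corresponds to 8.94 CPM in the knockout library and 6.63 in the control library. Of all genes tested in mTEC, 9.13% lay farther from 0.

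Mylip (ENSMUSG00000038175, chromosome 13, 45389742 to 45412022, plus strand) had 1448 reads in knockout mTEC, against 1409 in control mTEC, and 2245 in knockout cTEC, against 1938 in control cTEC. Its levels were 82.4 CPM in knockout mTEC, 82.7 in control mTEC, 128 in knockout cTEC and 127 in control cTEC. The log2 ratios were −0.0046 (−0.11 to 0.10) and 0.01 (−0.07 to 0.10), and the sign in mTEC turned with DESeq2 size factors. Smpdl3a (ENSMUSG00000019872, chromosome 10, 57794335 to 57811830, plus strand) had 1758 reads in knockout mTEC, against 1557 in control mTEC, and 1430 in knockout cTEC, against 1214 in control cTEC. Its log2 ratios were 0.13 (0.03 to 0.23) in mTEC and 0.04 (−0.07 to 0.15) in cTEC. The knockout mTEC library was therefore slightly the higher of its pair for Smpdl3a, and the other pairs of these 2 genes overlapped within counting error.

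**Figure D2:**
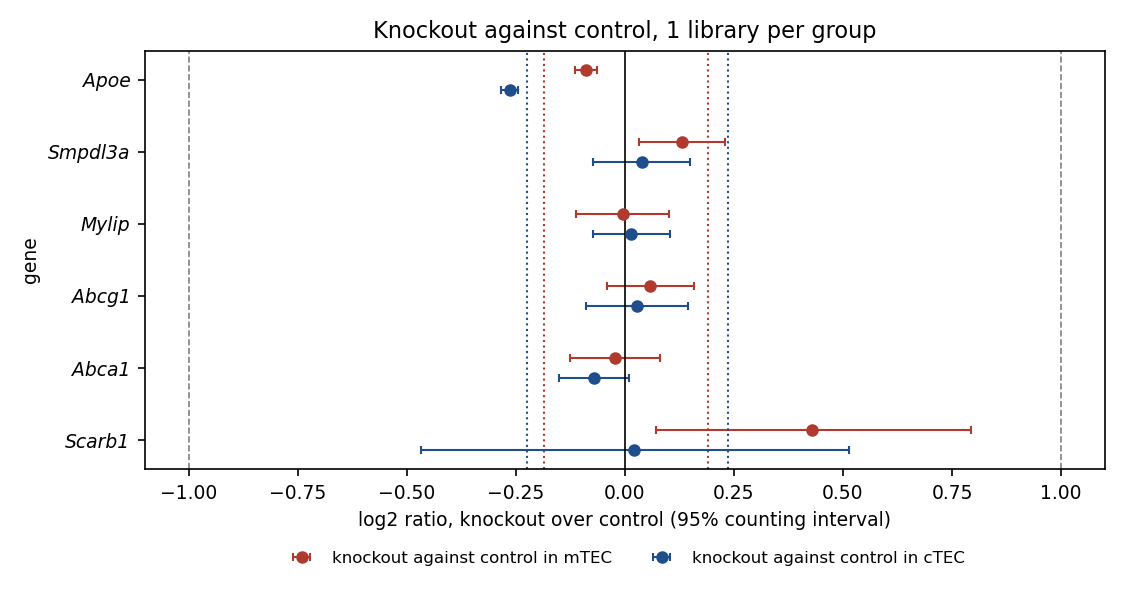
Log2 ratio of knockout over control for each gene, in mTEC (red, upper point) and cTEC (blue, lower point), with 95% counting intervals. Dotted lines mark the 5th and 95th percentiles of genes with at least 1000 reads over the pair (−0.18 and 0.19 in mTEC, −0.23 and 0.24 in cTEC), and dashed lines 2-fold. Scarb1 in mTEC (0.43) and Apoe in cTEC (−0.26) lie beyond the dotted lines of their pair. Scarb1 had fewer reads (157 and 113) than the genes behind these lines. Among all genes tested in mTEC the 95th percentile was 0.44, and Scarb1 lay inside it.

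Counting intervals excluded 0 for 3 of 6 members in mTEC (Apoe, Smpdl3a and Scarb1), where 21.8% of all genes tested did (11.6% higher and 10.2% lower in knockout). In cTEC this held for Apoe alone, where 30.8% of all genes did (16.3% higher and 14.5% lower). The genotype ratio in mTEC minus that in cTEC was 0.18 (0.14 to 0.21) for Apoe and 0.41 (−0.18 to 0.99) for Scarb1. For the other 4 members it lay between −0.02 and 0.09 with intervals that include 0. With 1 library per group this difference between populations could not be tested. Markers of other cells moved in the same pairs. The median of 12 thymocyte markers was 0.27 in mTEC and 0.38 in cTEC, and that of the macrophage and dendritic cell markers 0.20 over 16 genes in mTEC and 0.26 over 10 in cTEC. The cTEC markers had medians of 0.18 and 0.33, and the endothelial markers 0.48 over 7 genes and 0.57 over 4. The mTEC markers had a median of 0.02 over 10 genes in mTEC and −0.22 over 9 in cTEC, where 8 lay below 0 and 6 intervals excluded 0 on the lower side. The part of these shifts in the members' values was not tested.

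The third comparison asked where in the epithelium these genes are used, and here the 6 genes split. Abca1, Apoe and Mylip were lower in mTEC than in cTEC, and Abcg1, Smpdl3a and Scarb1 were higher, in knockout as in control mice. All 6 counting intervals excluded 0 in each genotype, 3 in each direction. Among all genes 76.4% did in knockout mice (34.9% higher and 41.6% lower in mTEC) and 74.7% in control mice (34.8% higher and 39.9% lower). Of the 6, Scarb1 in knockout mice was the single one called at 2-fold, with a log2 ratio of 1.001 (0.61 to 1.42), at the edge of the rule. By that rule 28.8% of 15962 genes were called in knockout mice (19.8% higher and 8.96% lower) and 27.5% of 15747 in control mice (19.0% higher and 8.53% lower). At 1.5-fold 4 of the 6 were called in each genotype, where 44.9% of genes were in knockout and 43.5% in control mice.

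Abca1 was at 87.9 CPM in knockout mTEC, against 150 in knockout cTEC, a log2 ratio of −0.77 (−0.87 to −0.68). The control pair gave −0.82 (−0.92 to −0.73). Apoe had log2 ratios of −0.77 (−0.80 to −0.75) in knockout and −0.95 (−0.97 to −0.93) in control mice. These are 1.71-fold and 1.93-fold lower levels in mTEC. Mylip had log2 ratios of −0.64 (−0.73 to −0.54) and −0.62 (−0.72 to −0.52). These 3 genes were at least 1.5-fold lower in mTEC in both genotypes, as were 19.8% of genes tested in knockout and 19.1% in control mice.

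Abcg1 was at 98.5 CPM in knockout mTEC, against 75.3 in knockout cTEC, and at 94.6 in control mTEC, against 73.9 in control cTEC. Its log2 ratios were 0.39 (0.28 to 0.49) and 0.36 (0.25 to 0.47), opposite in sign to those of Abca1. Smpdl3a had log2 ratios of 0.29 (0.19 to 0.40) in knockout and 0.20 (0.09 to 0.31) in control mice. Scarb1 stood at 8.94 CPM in knockout mTEC, against 4.45 in knockout cTEC, and at 6.63 in control mTEC, against 4.38 in control cTEC, which is a control log2 ratio of 0.59 (0.15 to 1.06). Scarb1 was the only member at least 1.5-fold higher in mTEC in both genotypes, as were 25.1% and 24.4% of genes tested. In control mice it stood at 1.508-fold, at the edge of this threshold.

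**Figure D3:**
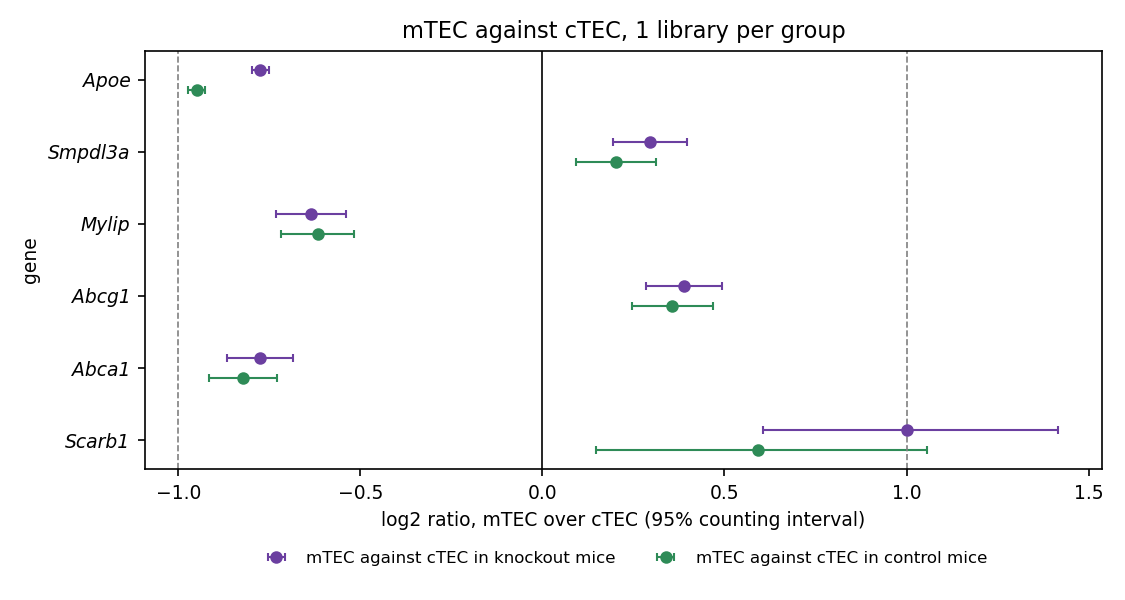
Log2 ratio of mTEC over cTEC for each gene, in knockout mice (purple, upper point) and control mice (green, lower point), with 95% counting intervals. Dashed lines mark 2-fold. Apoe, Mylip and Abca1 lie to the left of 0 in both genotypes, and Smpdl3a, Abcg1 and Scarb1 to the right.

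Macrophages express several of these genes strongly, so their markers were read in the same libraries. The 18 macrophage and dendritic cell markers summed to 417 CPM in knockout mTEC, 375 in control mTEC, 133 in knockout cTEC and 111 in control cTEC, with none at 0. Of 14 measured in each genotype, 10 were called higher in mTEC in knockout mice and 13 in control mice. Among all genes 19.8% were called higher in knockout mice and 19.0% in control mice. The sum was led by Lyz2 (256, 223, 48.1 and 40.5 CPM in the same order), and Csf1r had 275, 282, 112 and 91 reads. Of the 14, 13 lay above 0 in each genotype. The 1 below was Cd68, at −0.65 (−0.87 to −0.44) in knockout and −0.75 (−0.99 to −0.52) in control mice. Abca1, Apoe and Mylip lay in the direction opposite to most of these markers, and in that of Cd68. Abcg1, Smpdl3a and Scarb1 lay in the direction of most of these markers. The 14 thymocyte markers summed to 263 CPM in knockout mTEC, 217 in control mTEC, 394 in knockout cTEC and 305 in control cTEC. They lay in the same direction as Abca1, Apoe and Mylip, with medians of −0.58 in knockout and −0.46 in control mice over 12 genes. Intervals lay on the lower side for 10 in knockout and 9 in control mice, as for 41.6% and 39.9% of all genes tested. Apoe alone held 3.32 times the CPM of all 18 macrophage and dendritic cell markers in knockout mTEC and 3.94 times in control mTEC. In knockout cTEC it held 17.8 times and in control cTEC 25.7 times. How much Apoe RNA a macrophage held was not measured. The 10 fibroblast and pericyte markers summed to 532 and 522 CPM in knockout and control mTEC and to 442 and 452 in knockout and control cTEC. These sums hold genes that went opposite ways. Dcn (−2.08 in knockout and −2.06 in control mice), Dpt (−2.65 and −2.004) and Lum (−1.75 and −2.16) were called lower in mTEC, and Rgs5 (3.20 and 2.99) and Pdgfrb (3.63 and 3.53) higher. The 10 endothelial markers summed to 41.2, 30.2, 34.2 and 22.7 CPM in knockout mTEC, control mTEC, knockout cTEC and control cTEC, and the 7 B cell markers to 36.8, 32.8, 6.45 and 5.23. The part of other cells in the members' values was not tested.

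Reads of the LXR genes and of their partner genes were counted as well. Nr1h2, the gene of LXR beta, stood at 48.2 RPKM in knockout mTEC, 44.7 in control mTEC, 61.3 in knockout cTEC and 63.4 in control cTEC. Nr1h3, the gene of LXR alpha, stood far lower at 5.14, 5.41, 2.95 and 3.02 RPKM in the same libraries. Between populations they went opposite ways, with control log2 ratios of −0.50 (−0.58 to −0.43) for Nr1h2 and 0.84 (0.52 to 1.18) for Nr1h3. Rxra, a partner receptor, was at −0.80 in both genotypes. Between genotypes none of the 9 receptor and cofactor genes passed the size rule, with medians of 0.01 in mTEC and −0.03 in cTEC. Nr1h2 was at 0.11 (0.03 to 0.19) in mTEC, and in cTEC the corepressor gene Ncor1 was at 0.14 (0.06 to 0.22).

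Other genes described as LXR targets went both ways between populations. Of 17 measured in knockout mice, 5 were called higher and 6 lower in mTEC, and of 16 in control mice 4 and 6. Among all genes 19.8% were called higher and 8.96% lower in knockout mice, and 19.0% higher and 8.53% lower in control mice. Pltp, which transfers phospholipids between lipoproteins, was at −2.46 (−2.51 to −2.41) in knockout and −2.39 (−2.44 to −2.34) in control mice. Lpl, the lipoprotein lipase gene, was at −2.58 and −2.21, and Srebf1, the transcription factor gene of fatty acid synthesis, at −1.63 and −1.70. Tgm2 and Slc2a4, genes of a transglutaminase and a glucose transporter, and Mertk, a receptor for dying cells, were also called lower in mTEC in both genotypes. On the higher side were Scd1 (1.92 and 1.85), Thrsp (3.52 and 2.74) and the sterol half-transporters Abcg5 (3.63 and 2.54) and Abcg8 (3.71 and 2.62). Cd5l, a macrophage protein gene with 71 and 2 reads in knockout mTEC and knockout cTEC, was called in knockout mice.

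Between genotypes Scd1 was the single gene of this list past the size rule, of 18 measured in mTEC and 14 in cTEC. The list medians were 0.10 in mTEC and −0.03 in cTEC, beside 0.01 for all genes tested in each. In mTEC Srebf1 stood at 0.26 (0.19 to 0.34) and Abca3, a lipid transporter gene, at 0.18 (0.03 to 0.34). In cTEC Srebf1 stood at 0.20 (0.15 to 0.24), Lpl at 0.35 (0.26 to 0.44), Abca3 at −0.26 (−0.44 to −0.09) and Abca2 at −0.20 (−0.36 to −0.04).

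**Figure D4:**
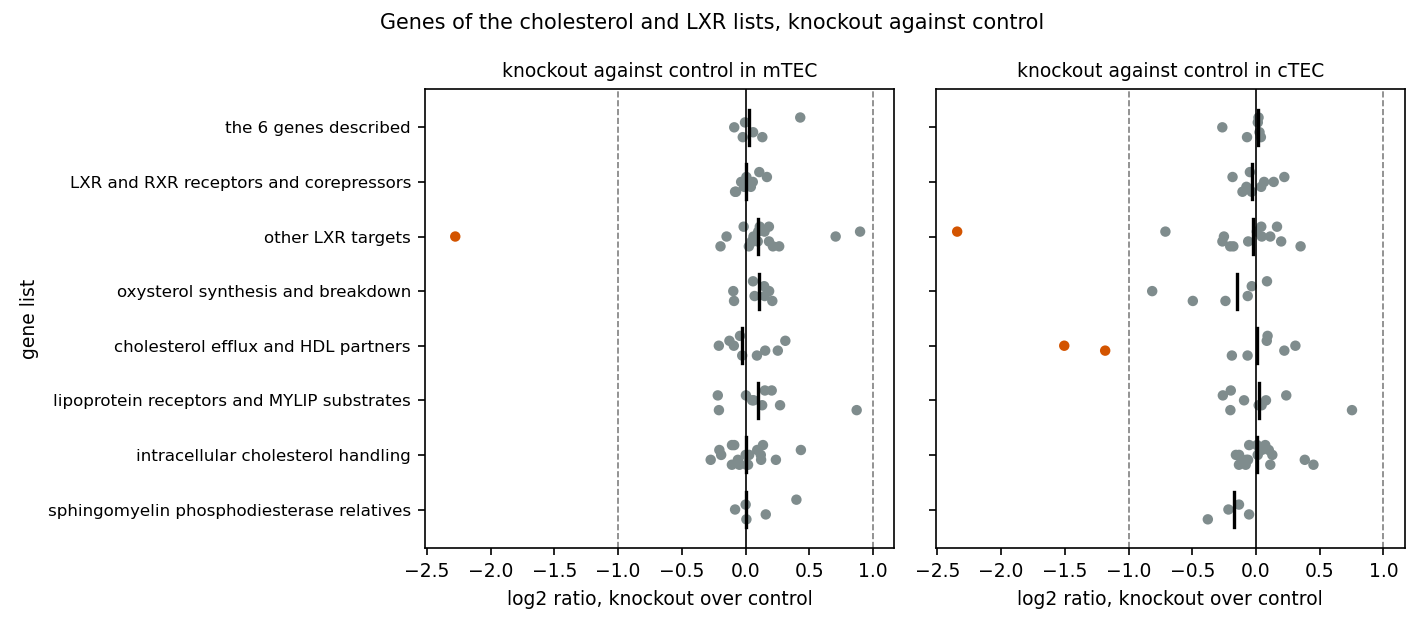
Log2 ratio of knockout over control for the genes of each list with at least 50 reads over the pair, in mTEC (left) and cTEC (right). Each point is a gene, orange where the size rule was passed, black bars are list medians and dashed lines 2-fold. The orange points are Scd1 in both populations and Apoa1 and Apoa2 in cTEC.

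None of the genes that make or remove LXR ligands passed the size rule by genotype. Ch25h, which makes 25-hydroxycholesterol, had 898 reads in knockout cTEC, against 1104 in control cTEC, a log2 ratio of −0.50 (−0.62 to −0.37). The mTEC markers were also lower in this cTEC pair (median −0.22), and their part in the Ch25h value was not tested. In mTEC Ch25h had 1727 reads in the knockout library, against 1784 in the control library. The list medians were 0.11 over 8 genes in mTEC and −0.15 over 6 in cTEC. Between populations Cyp11a1, the side-chain cleavage enzyme gene of steroid synthesis, had 288 reads in knockout mTEC, against 9 in knockout cTEC, and 266 in control mTEC, against 13 in control cTEC. Sult2b1, a sterol sulfotransferase gene, was also called higher in mTEC (3.28 and 2.60). Ch25h was higher in mTEC at 0.94 (0.82 to 1.06) in knockout and 0.54 (0.43 to 0.64) in control mice. Cyp27a1, which makes 27-hydroxycholesterol, was lower in mTEC at −0.92 and −0.88.

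Of the partners in HDL formation, 2 were called by genotype, both in cTEC. The HDL protein genes Apoa1 (75 reads in knockout cTEC, against 149 in control cTEC) and Apoa2 (28, against 70) had log2 ratios of −1.18 (−1.61 to −0.78) and −1.50 (−2.21 to −0.87). They were the 2 genes called of 8 measured, of which 4 lay above 0 and 4 below, with a median of 0.01, and 0.706% of all genes were called lower in knockout cTEC. Lipg, an endothelial lipase gene, stood at 0.22 (0.03 to 0.42). The mTEC markers were also lower in this pair (median −0.22), and their part in these values was not tested. In mTEC none of 9 was called, and Apoa1 stood at 0.15 (−0.0012 to 0.31). Between populations Abca7, a phospholipid transporter related to Abca1, was higher in mTEC (1.67 and 1.52), as were Apoa1 (3.28 and 1.94), Apoa2 in knockout mice (1.90), Apod (2.01 and 2.23) and the hepatic lipase gene Lipc (3.82 and 2.41). Lcat, which esterifies cholesterol on HDL, and Cav1, a caveolin gene, were lower in mTEC at −1.02 and −1.52 in knockout mice and at −1.19 and −1.38 in control mice. Lipg stood at 0.51 and 0.83.

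The receptors that MYLIP removes were spread between the populations. Vldlr was lower in mTEC (213 reads in knockout mTEC, against 1163 in knockout cTEC, −2.45, −2.67 to −2.24) and Lrp8 higher (549 reads, against 60, 3.18, 2.80 to 3.60). In control mice they stood at −2.36 and 2.78. Lsr, a receptor gene for lipolysed lipoproteins, was also called higher in mTEC in both genotypes (1.02 and 1.03). Between genotypes none of the genes of this list passed the size rule, of 10 measured in mTEC and 9 in cTEC. Vldlr was at 0.24 (0.11 to 0.37) in cTEC, and Lrp1, the large receptor that binds APOE, at −0.22 (−0.31 to −0.13) in mTEC and −0.26 (−0.34 to −0.18) in cTEC.

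Genes of cholesterol handling inside the cell completed the lists. None of 18 passed the size rule by genotype in either population, with medians of 0.0039 in mTEC and 0.01 in cTEC. Insig1, which holds back sterol synthesis, was at 0.43 (0.25 to 0.62) in mTEC, and Lipa, the lysosomal lipase gene, at 0.45 (0.25 to 0.65) in cTEC. Gramd1b, which carries sterol from the plasma membrane to the endoplasmic reticulum, was at 0.38 (0.26 to 0.50) in cTEC. On the other side were Nceh1, a cholesterol ester hydrolase gene, at −0.27 (−0.49 to −0.06) and Soat1, which esterifies cholesterol, at −0.21 (−0.39 to −0.02) in mTEC, and Tspo, a mitochondrial membrane protein gene, at −0.16 (−0.26 to −0.06) in cTEC. Intervals excluded 0 for 6 genes higher and 3 lower in knockout mTEC, and for 4 higher and 3 lower in knockout cTEC. Among all genes tested 11.6% were higher and 10.2% lower in mTEC, and 16.3% and 14.5% in cTEC. Between populations Gramd1b (1.40 and 1.66) and Stard4, a soluble sterol carrier gene (1.79 and 1.48), were called higher in mTEC in knockout and control mice. The list as a whole went both ways. In knockout mice 8 of the 18 lay above 0 and 10 below (median −0.27), and in control mice 10 and 8 (median 0.01). Scarb2 (−0.64 and −0.80) and Srebf2 (−0.50 and −0.57) were among those lower in mTEC.

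**Figure D5:**
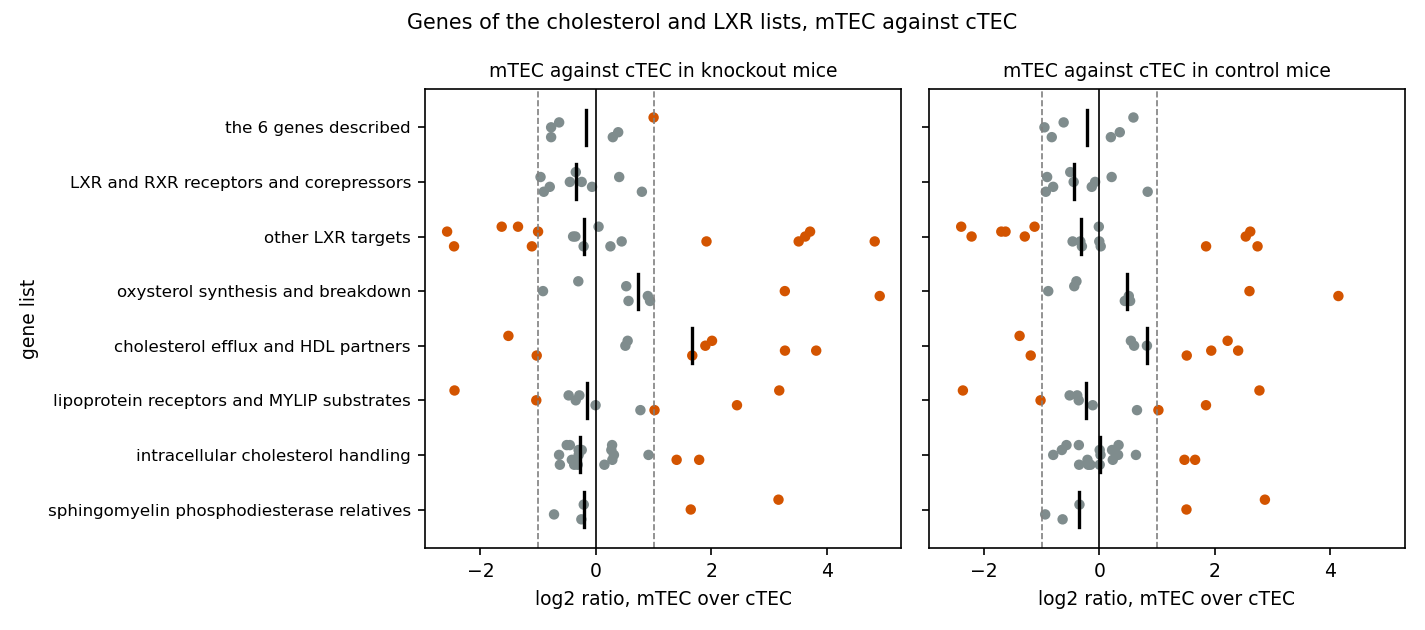
Log2 ratio of mTEC over cTEC for the genes of each list with at least 50 reads over the pair, in knockout mice (left) and control mice (right). Each point is a gene, orange where the size rule was passed, black bars are list medians and dashed lines 2-fold. The 6 genes described lie between −0.95 and 1.001, inside the range of the other LXR targets (−2.58 to 4.83).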

How the data were processed

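RNA of 4 libraries was sequenced. The deposited table holds whole-number read counts for each gene, not normalized, and gives symbols, positions and a length in bases, per the file headers. Per the submitters' processing notes, CASAVA, HISAT2 2.0.5 and featureCounts 1.5.0-p3 were used with mm10. Not given in the sources used here: which annotation was counted, whether by strand, and how multiply mapped reads were handled.

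Counts were scaled by TMM in edgeR 4.0.16 (R 4.3.3), and Python 3.11.15 with scipy 1.17.1 gave log2 ratios (prior count 0.5), exact conditional binomial (Clopper-Pearson) 95% intervals for ratios and exact Poisson intervals for levels. The interval of a difference between 2 log2 ratios is a normal approximation. All 54532 genes were processed, and the procedure was tested on simulated data. The size rule required at least 50 reads over the pair, a 2-fold ratio and an interval excluding 0. No p-value was computed. A count of 0 allows up to 3 reads, 0.171 to 0.196 CPM per library.

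The 6 genes and the lists were chosen with earlier results of these data known. Genes named from lists come from those called and from up to 4 others per list with the largest ratios and at least 200 reads over the pair, plus both LXR genes, Srebf1, Vldlr and Lrp8. Some genes that this rule names are not reported here. Alternatives were other scalings, read minima, prior count and fold. Shared sequence was searched on both strands in GENCODE release M21 transcripts.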

Additional observations from a re-analysis of the deposited data

How the results depend on the processing

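With DESeq2 1.42.0 size factors, total counts, no minimum or a minimum of 200 reads, or a prior count of 2, no member was called by genotype in either population, and with a 1.5-fold threshold none was either. Mylip in mTEC turned sign, at 0.0012 with DESeq2 size factors. No other member value changed sign in any comparison, and the scalings moved genotype ratios by at most 0.0092 and population ratios by at most 0.09 (total counts). The differences of genotype ratios between populations kept within their intervals. In the population comparisons, a 1.5-fold threshold called 4 members in knockout mice and 4 in control mice, since more genes pass a lower threshold. With a prior count of 2 the count in knockout mice became 0, as Scarb1 stood at 0.99. In control mice Scarb1 moved from 0.593 to 0.580 with that prior count, which is below 1.5-fold. With a minimum of 200 reads the members' median in control mice became −0.62, because Scarb1 left the list. With up to 2 mismatches, a setting added after the data were seen, as was the transcript length, 0 promoters of the 3 held the repeat, against 2.57% of all. No paired analysis was possible because each group has 1 library. Depth limits Scarb1 most, with 67 to 157 reads. Reads are not independent molecules, and the spread between mice is unknown for every value.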

Other observations

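Relatives of Smpdl3a went both ways between populations. Of 5 measured, intervals lay on the higher side in mTEC for 2 and on the lower side for 3, in each genotype. Among all genes 34.9% were higher and 41.6% lower in knockout mice, and 34.8% and 39.9% in control mice. The lower ones were Smpd2 (−0.72 in knockout and −0.94 in control mice), Smpd1 (−0.25 and −0.63) and Smpd4 (−0.21 and −0.34). Smpd3, a neutral sphingomyelinase gene, had 1215 reads in knockout mTEC, against 387 in knockout cTEC (log2 ratio 1.65, 1.48 to 1.82), and 1248 in control mTEC, against 392 in control cTEC (1.51). Smpdl3b had 238 reads in knockout mTEC, against 26 in knockout cTEC, and 175 in control mTEC, against 21 in control cTEC. Between genotypes Smpd1, the lysosomal acid sphingomyelinase gene, had 729 reads in knockout cTEC, against 826 in control cTEC (−0.38, −0.52 to −0.23), and 614 in knockout mTEC, against 593 in control mTEC (0.01, −0.16 to 0.17). None of these genes passed the size rule by genotype.

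The genes most like each member over the 4 libraries were found by the distance between centred log2 CPM values among 12779 protein-coding genes. For Apoe the nearest was Tpm1, at a distance of 0.01, beside a median distance of 0.84. Ttc21a followed at 0.03. For Abca1 they were Zfp1 (0.02) and Rfesd (0.03), and for Mylip Ankrd16 (0.01) and Mrpl17 (0.01). Ppp1ca (0.02) and Med30 (0.03) were nearest to Abcg1, and Gas2l1 (0.02) and Tmem150c (0.03) to Smpdl3a. For Scarb1 they were Trpm5 (0.05) and Dnajc12 (0.08), with 6 genes within 0.1, against 20 to 304 for the other members. Among the members themselves the smallest distance was 0.13, between Abcg1 and Smpdl3a, and that between Abca1 and Apoe was 0.16. With 4 libraries such likeness is a description.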
